A study of Homo sapiens with 18 samples.

Results

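The AP-1 and EGR immediate-early factors were followed in THP-1 cells, an established line from a human acute monocytic leukaemia, across knockdown of TRAFD1 and stimulation with lipopolysaccharide (LPS). The members were the 10 genes FOS, FOSB, FOSL1, FOSL2, JUN, JUNB, JUND, EGR1, EGR2 and EGR3, chosen by symbol from the 63677 genes of the count table. All 10 were present and all 10 passed the filter on low counts, which left 16678 genes to be tested. KD cells carried an siRNA against TRAFD1 at 25 nM, SCR cells a scrambled siRNA at 25 nM and WT cells none, and 72 h after transfection each received LPS at 10 ng/ml or plain medium for 4 h. The sources differ on whether WT cells met the transfection reagent, so that in a difference between SCR and WT the siRNA and the reagent cannot be told apart. Each of the 6 groups held 3 libraries of 1 cell line, with replicates 1 to 3 in medium and 4 to 6 in LPS. The methods say that treatments were made in triplicate but not whether the 3 came from separate cultures or days, so the p-values measure the spread between these libraries, which may be in part technical.

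AP-1 is a dimer of basic leucine zipper proteins in which a JUN protein pairs with another JUN protein, a FOS protein or an ATF relative. JUN proteins can pair with one another, whereas FOS proteins need a JUN partner to bind DNA. The EGR proteins are zinc finger factors that bind a GC-rich motif and are held in check by the NAB corepressors. Several genes of both families are called immediate-early because mitogens, stress and Toll-like receptor ligands such as LPS induce them without new protein synthesis. This induction runs through MAP kinases. In monocytes the factors take part in cytokine expression and differentiation towards macrophages. Only the 4 h time point was sampled, which is later than the first transient wave for which several of them are known.

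On GRCh37 the genes are spread over several chromosomes. The JUN genes are JUN (ENSG00000177606) at chr1:59242517-59249720, JUNB (ENSG00000171223) at chr19:12902300-12904129 and JUND (ENSG00000130522) at chr19:18390504-18392432. The FOS genes are FOS (ENSG00000170345) at chr14:75745529-75748933, FOSB (ENSG00000125740) at chr19:45971253-45978437, FOSL1 (ENSG00000175592) at chr11:65659520-65668044 and FOSL2 (ENSG00000075426) at chr2:28615315-28640184. EGR genes are EGR1 (ENSG00000120738) at chr5:137801168-137804992 and EGR2 (ENSG00000122877) at chr10:64571756-64578927, and EGR3 (ENSG00000179388) lies on chromosome 8. Reads were counted over an end of 500 bases of each gene. The methods word that end as 5′ but also as the last, and it was read here as the 3′ end, which QuantSeq sequences, so that the values speak of that end and not of single exons.

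Total counts per library ranged from 8206023 to 22344279, and 3 counts, the upper limit behind a 0, equalled 0.133 to 0.378 CPM (counts per 1000000). This limit covers counting error only. All 12 monocytic markers passed the filter, with a sum of group means between 558 and 687 CPM, although the granule gene MPO stayed at or below 2.36 CPM. The 4 T cell and 4 epithelial markers did not pass and summed to at most 0.298 and 0.360 CPM, and KRT19, HBB and ALAS2 had no count in any library. Of the 3 B cell and 3 fibroblast markers 1 each passed the filter, with list sums between 2.37 and 3.31 CPM and between 1.13 and 2.18 CPM. TNF, IL1B, CXCL8, CXCL10 and NFKBIA, which LPS is known to induce, rose with LPS in all 3 conditions. TRAFD1 itself was 23.7 ± 3.38 CPM in SCR and 8.67 ± 3.14 CPM in KD without LPS, and 22.7 ± 4.42 and 14.5 ± 1.12 CPM with LPS (SD, n = 3 each). Its log2 fold change of KD against SCR was -1.45 (SE 0.231, adjusted p = 0.0277, edgeR) without LPS and -0.65 (SE 0.225, adjusted p = 0.262, edgeR) with LPS. One library, KD replicate 1 without LPS, stood apart from its group on the second principal component, with a score of 56.0 against 10.7 and -16.7, and the members' calls that rest on it are given with and without it. Without that library the value without LPS was -1.72 (SE 0.243, adjusted p = 0.0070, edgeR). Against WT, TRAFD1 in KD had a log2 fold change of -1.23 (SE 0.230, adjusted p = 0.0016, edgeR) without LPS, but of -0.23 (SE 0.227, adjusted p = 0.563, edgeR) with LPS, where the libraries overlapped.

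The promoters of 8 members were in the RefSeq table, as windows from 250 bases before to 50 bases after an annotated start. The 4 members printed here are those that were higher than in WT in both siRNA conditions without LPS, as described further on. Each sequence is the 250 bases upstream of the start, 5′ to 3′ on the coding strand, with motif matches in capitals. They lie on GRCh38.p14, at chr5:138465229-138465478 on the plus strand for EGR1, chr10:62816367-62816616 on the minus strand for the third of 3 EGR2 starts, chr1:58784048-58784297 on the minus strand for JUN and chr19:12791236-12791485 on the plus strand for JUNB.
EGR1: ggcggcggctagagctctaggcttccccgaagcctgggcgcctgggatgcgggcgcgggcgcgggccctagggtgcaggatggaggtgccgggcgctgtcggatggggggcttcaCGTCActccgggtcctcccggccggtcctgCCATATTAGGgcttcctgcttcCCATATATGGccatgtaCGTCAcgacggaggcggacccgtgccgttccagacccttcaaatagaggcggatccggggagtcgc
EGR2: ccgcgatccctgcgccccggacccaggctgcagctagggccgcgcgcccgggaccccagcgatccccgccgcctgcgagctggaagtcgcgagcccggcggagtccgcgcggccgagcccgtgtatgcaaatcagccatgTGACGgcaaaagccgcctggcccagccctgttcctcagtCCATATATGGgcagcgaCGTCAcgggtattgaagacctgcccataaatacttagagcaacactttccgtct
JUN: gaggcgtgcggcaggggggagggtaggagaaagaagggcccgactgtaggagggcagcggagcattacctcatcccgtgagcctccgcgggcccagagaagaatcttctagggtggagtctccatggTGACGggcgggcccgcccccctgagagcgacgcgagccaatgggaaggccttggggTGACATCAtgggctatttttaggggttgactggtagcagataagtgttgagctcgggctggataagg
JUNB: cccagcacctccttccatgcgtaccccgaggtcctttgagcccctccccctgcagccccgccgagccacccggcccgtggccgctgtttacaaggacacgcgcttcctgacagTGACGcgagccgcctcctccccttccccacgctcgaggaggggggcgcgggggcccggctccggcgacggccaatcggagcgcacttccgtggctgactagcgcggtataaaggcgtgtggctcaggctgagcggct
The capitals in EGR1 and EGR2 mark CArG boxes, the motif of serum response factor (SRF), and the half-site of the cyclic AMP response element (CRE), TGACG or its complement CGTCA. EGR1 held a pair of CArG boxes and the third EGR2 window 1, while 1.29% of the 35116 windows of all genes held any. In JUN the capitals mark a CRE half-site and TGACATCA, an AP-1-like variant which 2.61% of all windows held on either strand. The CRE half-site was in 8 of the members' 10 windows, against 24.6% of all windows, and was lacking from the first and second EGR2 windows. JUNB held no other motif searched. Among members not printed, JUND held the full element TGACGTCA, found in 1.85% of all windows and containing the half-site on both strands, and FOSL2 held the classical AP-1 site TGACTCA just after its start, a motif which 4.95% of all windows held as TGAGTCA or TGACTCA. The EGR motifs GCGTGGGCG and GCGGGGGCG were in no member's window and in 5.77% of all windows. Both strands were searched, and a match is a description of letters and not of binding.

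**Figure D1:**
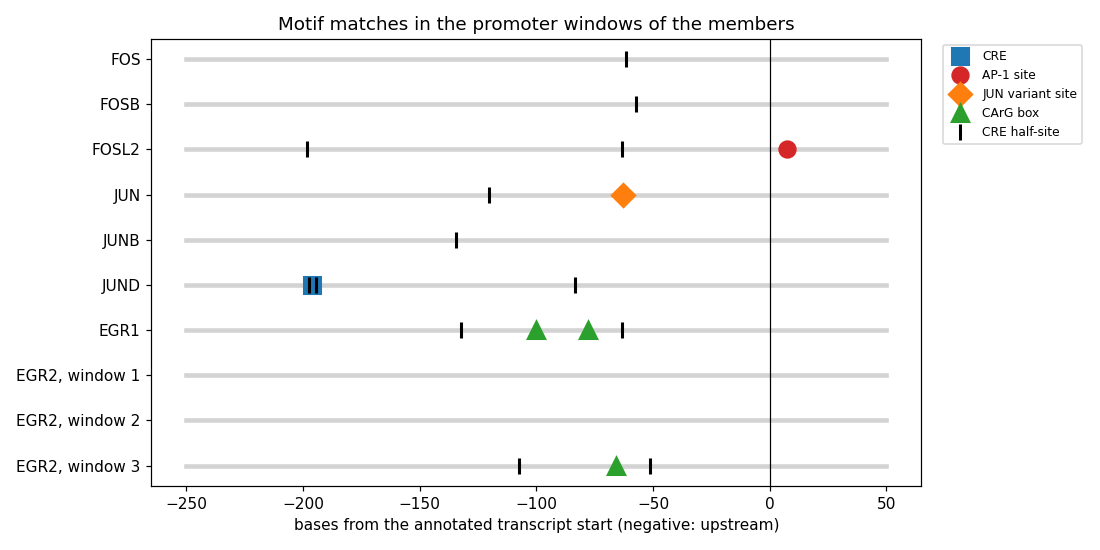
Motif matches (symbols) in the 10 promoter windows of 8 members (grey lines), against the distance in bases from the annotated start. Every member has a CRE half-site in at least 1 window, and CArG boxes appear in EGR1 and in the third EGR2 window.

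The members spanned a wide range of expression. QuantSeq gives 1 fragment per transcript, and counting over 500 bases at the 3′ end, as read here, means that CPM can be compared between genes without a correction for length. Over the 18 libraries JUND was the most abundant at a mean of 167 CPM, ahead of JUNB at 109, JUN at 78.5 and FOSL2 at 65.3 CPM. The order differed between groups. FOSL2 had the second highest mean in all 3 unstimulated groups, overlapping JUNB in SCR, and in SCR with LPS the mean of JUNB was above that of JUND, with overlapping libraries. EGR1 and FOS followed at 15.5 and 12.1 CPM, FOSL1 at 5.42, EGR2 at 4.64, FOSB at 1.64 and EGR3 at 0.486 CPM. Within unstimulated WT cells the libraries of FOS and EGR1 overlapped, as did those of FOSB and EGR2, and all other neighbours in that group's order were apart. In LPS-treated WT cells JUND overlapped JUNB, and FOS, EGR2 and FOSL1 overlapped one another. EGR3 had 0 to 25 counts per library, close to that limit of 3, and its differences could not be resolved at this depth.

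**Figure D2:**
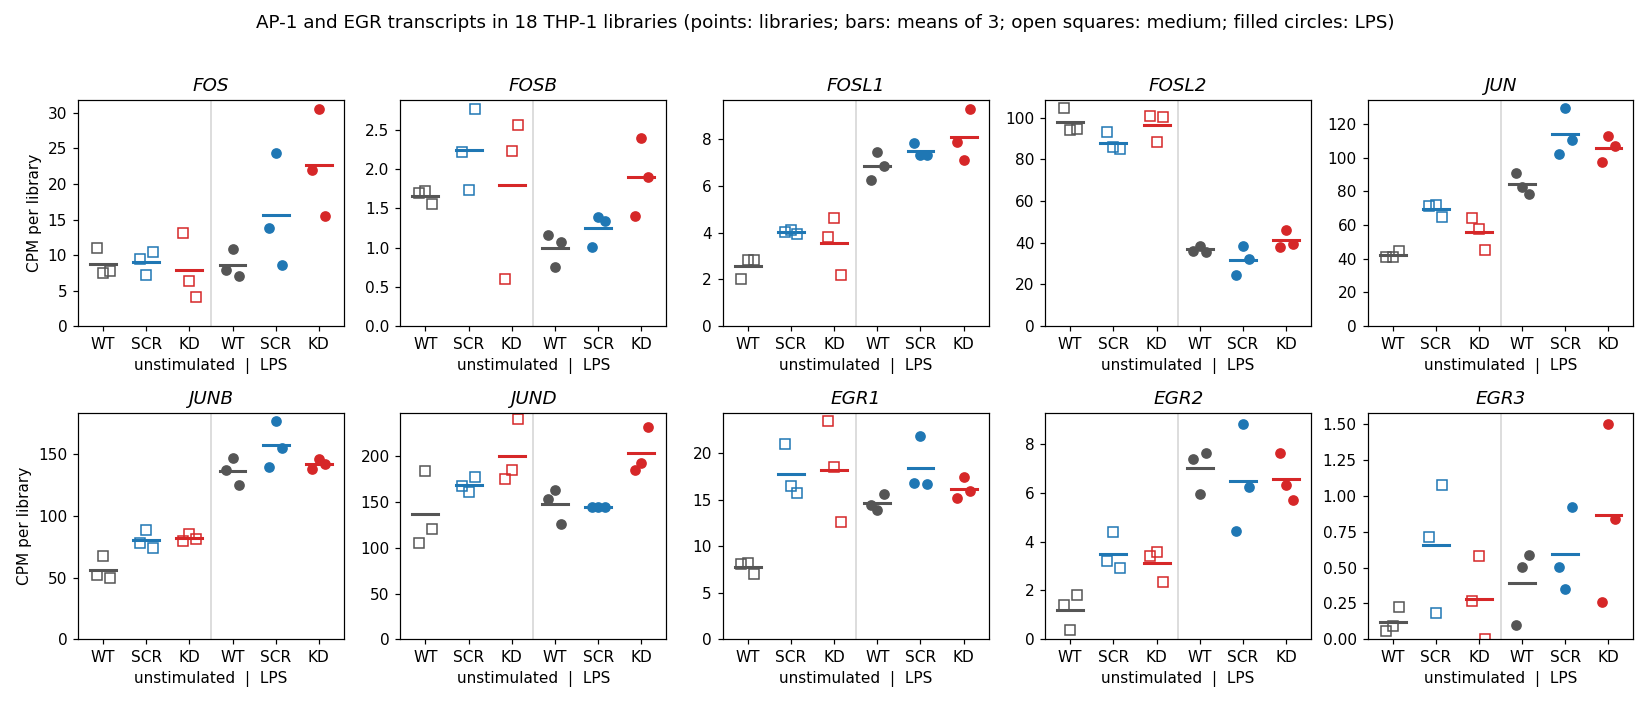
CPM of each member (y axis, linear from 0) in the 18 libraries, grouped by condition without LPS (open squares) and with LPS (filled circles), with bars for the means of 3. FOSL2 is lower and FOSL1, JUN and JUNB are higher in every LPS library than in every unstimulated library of the same condition.

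The first comparison asked how the factors responded to LPS. In WT cells 5 members rose and 1 fell, in SCR cells 3 rose and 1 fell, and in KD cells 5 rose and 1 fell (edgeR quasi-likelihood F test, Benjamini-Hochberg adjusted p under 0.05). JUN, JUNB and FOSL1 rose and FOSL2 fell in all 3 conditions. Of all genes tested, 14.3% were called in WT (7.01% higher and 7.26% lower), 17.2% in SCR (8.64% and 8.56%) and 11.5% in KD (6.41% and 5.05%). The median log2 fold change of the 10 members was 0.96 in WT, 0.39 in SCR and 0.86 in KD, against -0.030, -0.027 and -0.0029 over all genes tested. The libraries of the 2 groups did not overlap for 7, 7 and 6 members, against 32.5%, 37.3% and 25.4% of all genes.

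**Figure D3:**
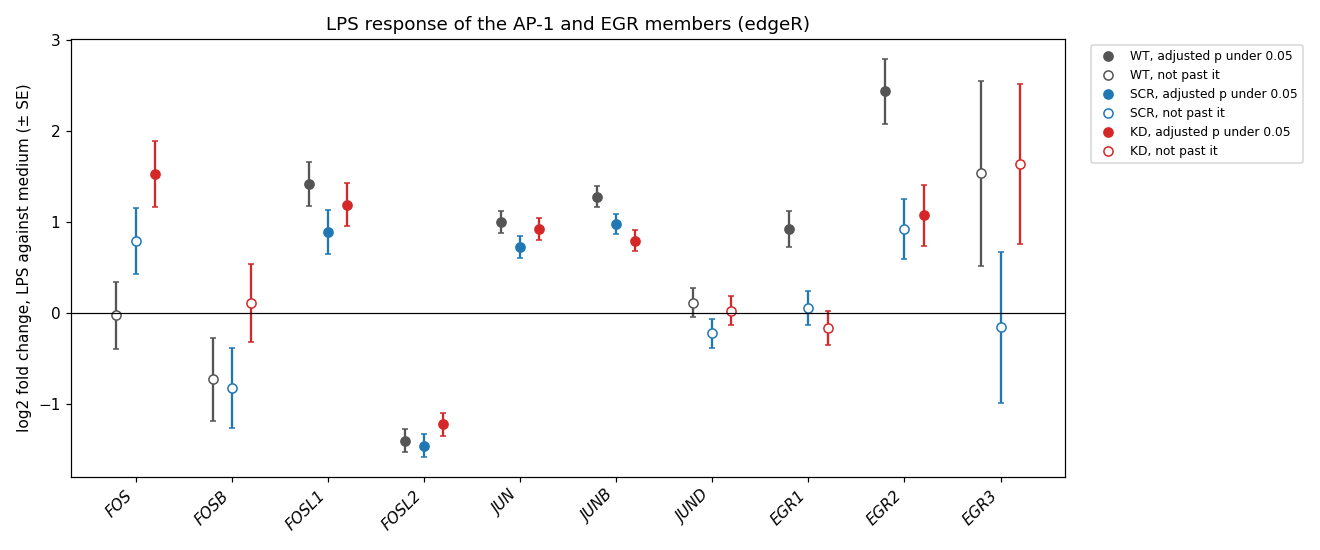
Log2 fold change of LPS against medium (y axis, ± SE) for each member in WT, SCR and KD, with filled points for an adjusted p under 0.05. FOSL1, JUN and JUNB have filled points above 0 and FOSL2 below 0 in all 3 conditions, and EGR1 has its only filled point in WT, at 0.92.

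Among the JUN proteins, JUN, the founding member and main target of the JNK kinases, measured 40.8, 41.2 and 44.4 CPM in WT without LPS and 91.1, 82.8 and 78.5 CPM with LPS. In SCR it went from 71.3, 71.9 and 64.7 to 102, 129.7 and 110.4 CPM, and in KD from 64.5, 57.4 and 45.3 to 97.5, 113 and 107 CPM. Every LPS library was above every unstimulated one of its condition, and the log2 fold changes were 1.00 (SE 0.122), 0.72 (SE 0.120) and 0.92 (SE 0.121), with adjusted p of 4.2e-06, 0.00025 and 1.7e-05 (edgeR). JUNB, which forms weaker activating dimers than JUN and can antagonise it, went from 52.3, 67.2 and 49.9 to 137, 146 and 125 CPM in WT. The groups did not overlap in SCR and KD either, where its means rose from 80.1 ± 7.42 to 157 ± 18.6 and from 82.0 ± 3.02 to 142 ± 4.14 CPM (SD, n = 3 each). Its log2 fold changes were 1.27 (SE 0.116), 0.98 (SE 0.115) and 0.79 (SE 0.115). The largest of their 3 adjusted p was 6.3e-05 (edgeR). Without KD replicate 1, the library that stood apart, the KD log2 fold changes were 1.04 for JUN and 0.77 for JUNB, both called. JUND, the JUN protein expressed most constantly across cell states, had adjusted p between 0.359 and 0.949 for LPS (edgeR) and means between 137 and 203 CPM in the 6 groups. On the reading as 3′ ends, the last 500 bases of JUNB lie wholly within the full span of HOOK2 on the opposite strand. Whether they meet the 500 base end over which HOOK2 was counted was not compared. The strand setting of the counting is not given in the sources used here, so whether reads of the pair were separated is not known.

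Among the FOS proteins FOSL2, a form with a part in differentiation and in the basal AP-1 complex of many cells, was the one that fell. It measured 105, 94.2 and 94.5 CPM in WT without LPS and 36.3, 38.5 and 35.7 CPM with LPS. The fall recurred in SCR, from a mean of 88.0 ± 4.53 to 31.7 ± 6.93 CPM, and in KD, from 96.4 ± 7.00 to 41.1 ± 4.38 CPM (SD, n = 3 each), with no overlap in any condition. The log2 fold changes were -1.41 (SE 0.127), -1.46 (SE 0.128) and -1.23 (SE 0.126), and the largest adjusted p was 6.1e-07 (edgeR). FOSL1, a FOS relative without the long transactivation domain of FOS, went the other way at a lower level. It measured 2.03, 2.82 and 2.85 CPM in unstimulated WT and 6.23, 7.44 and 6.86 CPM with LPS, a log2 fold change of 1.42 (SE 0.245, adjusted p = 0.00030, edgeR). In SCR and KD its log2 fold changes were 0.89 (SE 0.237, adjusted p = 0.0120, edgeR) and 1.19 (SE 0.238, adjusted p = 0.0021, edgeR). Without KD replicate 1 the KD log2 fold changes were -1.19 for FOSL2 and 1.25 for FOSL1, both called.

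FOS itself, the prototype of the transiently induced gene, was called with LPS in KD. In WT it was 11.0, 7.54 and 7.78 CPM without LPS and 7.88, 10.9 and 7.05 CPM with LPS, so that the groups overlapped. In SCR it was 9.38, 7.22 and 10.5 CPM without LPS and 13.9, 24.4 and 8.57 CPM with LPS, a log2 fold change of 0.79 (SE 0.362, adjusted p = 0.145, edgeR). The lowest of the LPS libraries of SCR lay within the unstimulated range. In KD, FOS rose from 13.2, 6.36 and 4.04 to 22.0, 30.5 and 15.5 CPM with no overlap, a log2 fold change of 1.52 (SE 0.363, adjusted p = 0.0084, edgeR). The highest of the unstimulated KD values belonged to replicate 1, the library that stood apart, and without it the log2 fold change was 2.13 (adjusted p = 0.00029, edgeR). The adjusted p was 0.0554 without KD replicate 3 and 0.0594 without KD replicate 5. FOSB, an activity-regulated FOS relative, had at most 2.77 CPM in any library and was called in no condition. Its last 500 bases lie within the full span of ERCC1 on the opposite strand, with the same open questions of counted end and strand.

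Of the EGR factors, EGR1, which is induced through SRF and its ternary complex partners, rose with LPS in WT. It measured 8.14, 8.17 and 7.03 CPM without and 14.4, 14.0 and 15.7 CPM with LPS in WT, a log2 fold change of 0.92 (SE 0.195, adjusted p = 0.0022, edgeR). In SCR it was 21.0, 16.5 and 15.8 against 16.8, 21.8 and 16.7 CPM, and in KD 23.5, 18.6 and 12.6 against 15.2, 17.5 and 15.9 CPM. The unstimulated SCR libraries thus lay above the range of WT with LPS, narrowly so at 15.8 against 15.7 CPM. Those of KD lay on both sides of that range. Within each siRNA condition the groups with and without LPS overlapped, with adjusted p of 0.885 in SCR and 0.602 in KD (edgeR), or 0.864 in KD without replicate 1, where the log2 fold change was 0.060. EGR2, a factor of myeloid differentiation and of peripheral nerve myelination, measured 1.41, 0.363 and 1.82 CPM in WT without LPS and 7.39, 5.93 and 7.64 CPM with LPS. Its log2 fold change of 2.43 (SE 0.357, adjusted p = 4.4e-05, edgeR) was the highest among the members in WT. In SCR it went from 3.20, 4.38 and 2.93 to 4.41, 8.83 and 6.23 CPM and in KD from 3.42, 3.55 and 2.33 to 7.60, 6.30 and 5.72 CPM. The groups were apart in both conditions, narrowly so in SCR, with log2 fold changes of 0.92 (SE 0.329, adjusted p = 0.0593, edgeR) and 1.07 (SE 0.332, adjusted p = 0.0404, edgeR). The KD call was lost without any 1 of 5 of its 6 libraries, at adjusted p up to 0.163, and the same libraries fitted without the other groups gave 0.0564. Without KD replicate 1 the call stayed, at 1.15 (adjusted p = 0.0370, edgeR).

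Whether the LPS response differed between conditions was tested by interaction terms. No member was called between SCR and WT, between KD and SCR or between KD and WT (edgeR), where 0.234%, 0% and 0.360% of all genes were, and 2, 0 and 4 members had an unadjusted p under 0.05. By DESeq2 with all libraries the counts were 0, 0 and 1. The nearest was EGR1 between KD and WT, with a log2 difference in response of -1.09 (SE 0.268, adjusted p = 0.0880, edgeR), and DESeq2 with all libraries gave -1.13 at an adjusted p of 0.0108. The corresponding difference between SCR and WT was -0.87 (SE 0.268, adjusted p = 0.305, edgeR). For EGR2 the differences were -1.52 (SE 0.483, adjusted p = 0.336, edgeR) for SCR against WT and -1.36 (SE 0.485, adjusted p = 0.205, edgeR) for KD against WT. These comparisons share the WT libraries and are not independent of one another. Each difference in response also contains the difference between the unstimulated groups, which is given further on. For FOS the difference in response between KD and WT was 1.55 (SE 0.518, adjusted p = 0.181, edgeR), or 2.16 (adjusted p = 0.0110, edgeR) without KD replicate 1, the library that stood apart. Without that library EGR1 gave -0.86 (adjusted p = 0.0406, edgeR), and 2 members were called. For the same interaction the calls in the 5 lists of related genes, described further on, went from 2 to 10. The share of all genes called without that library, or by DESeq2, is not given here.

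The next comparison set the siRNA conditions against WT in unstimulated cells. JUN, JUNB, EGR1 and EGR2 were higher in SCR than in WT, 4 of 10 members against 3.23% of all genes tested and 1.78% called higher. The same 4 and JUND were higher in KD than in WT, 5 of 10 members against 11.7% of all genes and 5.85% called higher (edgeR quasi-likelihood test, Benjamini-Hochberg). No member was lower in either comparison, where 1.45% and 5.85% of all genes were called lower. The median log2 fold change of the members was 0.58 for SCR and 0.50 for KD against WT, beside 0.0057 and -0.0085 over all genes. The SCR and KD comparisons share the WT libraries, so their likeness is in part built in. The libraries were apart for 7 members in SCR against WT and for 4 in KD against WT, where 22.6% and 24.3% of all genes were.

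**Figure D4:**
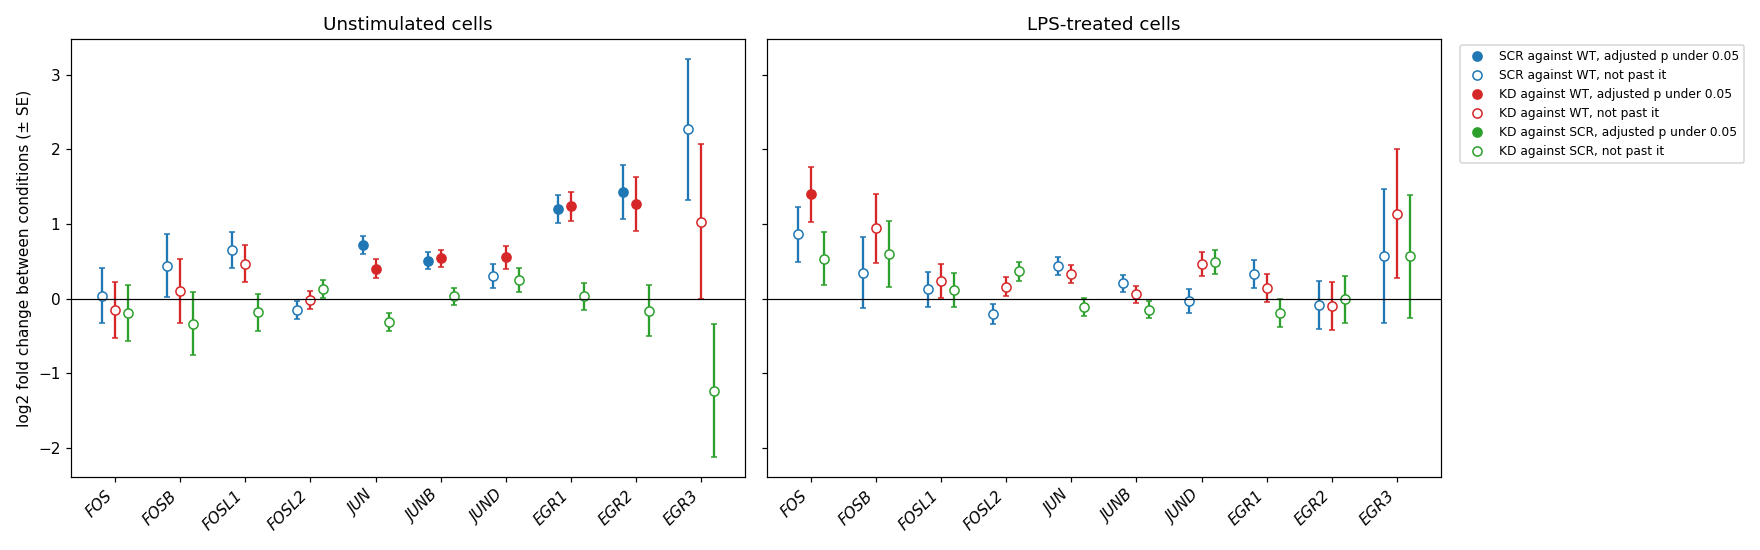
Log2 fold change between conditions (y axis, ± SE) for each member in unstimulated (left) and LPS-treated cells (right), with filled points for an adjusted p under 0.05. Without LPS the filled points are JUN, JUNB, EGR1 and EGR2 in SCR and KD against WT and JUND in KD against WT, with LPS the only one is FOS in KD against WT.

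EGR1 carried the clearest difference. The 3 WT libraries lay between 7.03 and 8.17 CPM and the 6 siRNA libraries between 12.6 and 23.5 CPM. Its log2 fold change was 1.20 (SE 0.191, adjusted p = 0.0011, edgeR) in SCR and 1.24 (SE 0.192, adjusted p = 0.00035, edgeR) in KD against WT, the latter 1.01 (adjusted p = 0.0017, edgeR) without KD replicate 1. JUN differed by 0.72 (SE 0.121, adjusted p = 0.0022, edgeR) in SCR, where the lowest library was 64.7 CPM and the highest in WT 44.4 CPM. In KD the lowest JUN library was 45.3 CPM, just above the WT range, and the difference of 0.40 (SE 0.121, adjusted p = 0.0346, edgeR) lost its call without any 1 of 5 of the 6 libraries and in 2 other fits, at adjusted p up to 0.149 and 0.151 (edgeR, DESeq2). It was 0.28 (adjusted p = 0.149, edgeR) without KD replicate 1. JUNB differed by 0.51 (SE 0.115, adjusted p = 0.0180, edgeR) and 0.54 (SE 0.115, adjusted p = 0.0041, edgeR), and the SCR call was lost without WT replicate 1, WT replicate 3, SCR replicate 1 or SCR replicate 2, at adjusted p up to 0.108. The KD difference was 0.57 (adjusted p = 0.0057, edgeR) without KD replicate 1 and lost its call in 1 other fit.

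EGR2 rested on few reads, 4 to 41 counts per library in WT. Its log2 fold change was 1.43 (SE 0.362, adjusted p = 0.0321, edgeR) in SCR and 1.27 (SE 0.366, adjusted p = 0.0273, edgeR) in KD against WT, and the calls were lost without any 1 of 5 and any 1 of 4 of the 6 libraries compared, at adjusted p up to 0.104 and 0.0745. For KD the adjusted p without replicate 1 was 0.0625. JUND was 106, 184 and 120.4 CPM in WT and 176, 185 and 240.4 CPM in KD. The second WT library lay inside the KD range, and the log2 fold change of 0.55 (SE 0.159, adjusted p = 0.0264, edgeR) was 0.64 (adjusted p = 0.0148, edgeR) without KD replicate 1 and lost its call without WT replicate 1, WT replicate 3 or KD replicate 3. With only the WT and KD libraries in the fit, EGR1 alone of the 10 members was called for KD against WT. The share of all genes called in that fit is not given here. In the same unstimulated libraries TNF was higher in SCR by 1.46 and in KD by 1.45 than in WT on the log2 scale. The monocytic marker CD14 was higher by 1.14 and 0.72. It was the only marker of 12 called in SCR and 1 of 2 called in KD, both of them higher. These were 8.33% and 16.7% of the markers, beside 3.23% and 11.7% of all genes. The 12 markers as a list had a median log2 fold change of 0.0053 in SCR and 0.13 in KD against WT. Over all genes tested it was 0.0057 and -0.0085. The part of TNF and of these markers in the differences between members was not tested. In bulk RNA, a change in the share of cells that express a gene and a change in RNA per cell cannot be told apart.

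With LPS, no member was called between SCR and WT (edgeR), where 0.114% of all genes were. In that comparison 2 members, FOS and JUN, had an unadjusted p under 0.05, and DESeq2 with all libraries called JUN. The groups were apart for 2 members, JUN and EGR1, against 22.8% of all genes. The log2 fold change of JUN was 0.44 (SE 0.120, adjusted p = 0.143, edgeR), and with the replicate number as a block, since same-numbered libraries varied together here, the adjusted p was 0.0648 and the count of members remained 0. FOS was the member called in KD against WT, 1 of 10 against 10.8% of all genes and 6.29% called higher, in a comparison in which TRAFD1 itself was not called. The KD libraries, at 15.5 to 30.5 CPM, were all above those of WT, at 7.05 to 10.9 CPM, and the log2 fold change was 1.40 (SE 0.365, adjusted p = 0.0192, edgeR). The call was lost without WT replicate 4, WT replicate 6 or KD replicate 5, at adjusted p up to 0.104, with the log2 fold change between 1.12 and 1.61. The log2 fold change was 0.46 (SE 0.159, adjusted p = 0.0648, edgeR) for JUND and 0.33 (SE 0.119, adjusted p = 0.0796, edgeR) for JUN. With FOS and FOSB these were the 4 members whose groups were apart, against 35.0% of all genes.

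KD against SCR, both transfected with an siRNA, bears most directly on TRAFD1. No member was called without LPS (edgeR), where 0.0660% of all genes were, nor with LPS, where 0% were. The members with an unadjusted p under 0.05 numbered 1 without LPS and 2 with LPS, and DESeq2 with all libraries called 0 in each. Without LPS, JUN had a log2 fold change of -0.31 (SE 0.120, adjusted p = 0.278, edgeR), or of -0.43 (adjusted p = 0.110, edgeR) without KD replicate 1. With LPS, JUND was 144, 144 and 144 CPM in SCR and 185, 193 and 232 CPM in KD, a log2 fold change of 0.50 (SE 0.159, adjusted p = 0.237, edgeR). JUN was the 1 member whose groups were apart without LPS, against 15.1% of all genes, and JUND and FOSB were the 2 with LPS, against 21.5%. For JUND the fit without a filter, the fit of these 2 groups alone and DESeq2 on them gave adjusted p between 0.00018 and 0.0330. The SD of JUND with LPS was 0.168 CPM in SCR, on 1143 to 2075 counts per library, and 25.3 CPM in KD. The fit without a filter used all 18 libraries. Whether the small spread in SCR bears on any of these p was not tested. FOSL2 with LPS had a log2 fold change of 0.37 (SE 0.128, adjusted p = 0.263, edgeR). A p that misses the threshold does not show that KD and SCR were alike.

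The genes that work with the members were taken from lists. Of 12 AP-1 partners, all of which were tested, 5 were called with LPS in each condition, 3 higher and 2 lower. That was 41.7% of the list, beside 14.3%, 17.2% and 11.5% of all genes tested in WT, SCR and KD. BATF2, an interferon-responsive partner of JUN proteins, rose by 1.17 (SE 0.138) in WT, 1.04 (SE 0.139) in SCR and 0.83 (SE 0.140) in KD on the log2 scale. JDP2, which represses AP-1 by pairing with JUN, had log2 fold changes of -2.39, -2.00 and -2.01, and BATF3, a dendritic cell factor, of -0.57, -0.78 and -0.94. ATF3, a stress-induced repressor, rose in WT by 1.11 (SE 0.166), and MAFG, a small MAF protein, rose in SCR by 0.48 and in KD by 0.69. In unstimulated cells 2 partners were higher in SCR than in WT and 2 in KD than in WT, with ATF3 among them at 1.13 and 0.98. These were 16.7% of the list each, beside 1.78% and 5.85% of all genes called higher. With LPS, BATF2 was the 1 partner that differed between KD and WT, and was lower by -0.66. That was 8.33% of the list, beside 10.8% of all genes tested. The median log2 fold change of the list for LPS was 0.12 in WT, 0.065 in SCR and 0.15 in KD.

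**Figure D5:**
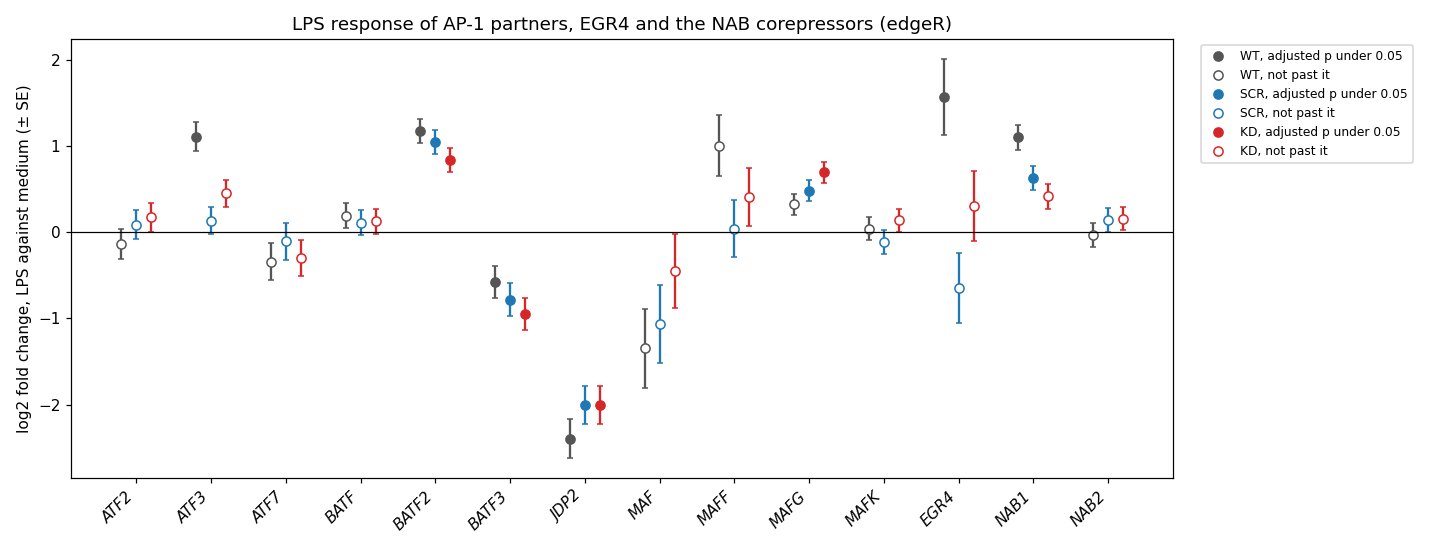
Log2 fold change of LPS against medium (y axis, ± SE) for AP-1 partners, EGR4 and the corepressors NAB1 and NAB2 in WT, SCR and KD, with filled points for an adjusted p under 0.05. BATF2 lies above 0 and JDP2 and BATF3 below 0 in all 3 conditions.

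EGR4 and NAB1 were called with LPS in WT, at 1.57 (SE 0.442) and 1.10 (SE 0.144), and NAB1 also in SCR at 0.63. In KD none of EGR4, NAB1 and NAB2 was called (edgeR), with 1, NAB1, at an unadjusted p under 0.05. EGR4, a further EGR factor, was higher without LPS in SCR than in WT by 1.92 (SE 0.431, adjusted p = 0.0168, edgeR) and in KD than in WT by 1.38 (SE 0.440, adjusted p = 0.0454, edgeR). Of 21 kinases and SRF partners, 5 were called with LPS in WT and 2 each in SCR and KD. These were 23.8%, 9.52% and 9.52% of the list, beside 14.3%, 17.2% and 11.5% of all genes tested. MAP3K8, the kinase that couples Toll-like receptors to ERK, rose by 1.49, 1.48 and 1.34 in WT, SCR and KD. SRF rose in WT by 0.56, and ELK4, one of its ternary complex partners, rose in SCR by 0.57 and in KD by 0.64. ELK3, MAPK14 and RPS6KA5 fell in WT, with log2 fold changes of -1.06, -0.33 and -1.36. In KD against WT MAPK14 was lower without LPS, by -0.27, while with LPS MAP2K1, a kinase of the ERK cascade, was higher by 1.67 and RPS6KA1 was lower by -0.54. The share of the list called in KD against WT was 4.76% without and 14.3% with LPS, beside 11.7% and 10.8% of all genes.

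Of 22 other immediate-early genes, LPS raised 9 in WT, 7 in SCR and 7 in KD, beside 7.01%, 8.64% and 6.41% of all genes tested. IER2 was the 1 that fell, in KD by 0.54. IER3, a regulator of cell survival, rose by 4.84, 3.42 and 3.24, and BTG2, an antiproliferative gene, by 1.95, 1.39 and 1.66. GADD45B, a stress gene, rose by 0.88 in WT, SGK1, a kinase, by 2.04 in SCR and DUSP2, a MAP kinase phosphatase, by 1.56 in KD. In unstimulated cells 4 were higher in SCR than in WT, with GADD45B at 0.73, KLF6 at 0.62 and IER3 at 1.39 first. In KD against WT 7 were higher, led by GADD45B at 0.79, KLF6 at 0.65 and ZFP36, an RNA-binding protein that destabilises cytokine mRNA, at 1.38, and IER5 was lower at -0.41. With LPS 8 were higher in KD than in WT, led by MYC at 1.30, KLF10 at 1.42 and KLF2 at 0.92, and IER2 and IER5 were lower at -0.51 and -0.34. Of all genes tested, 1.78% were called higher in SCR and 5.85% in KD against WT without LPS. In KD against WT with LPS 6.29% were called higher. The median log2 fold change of the list was 0.33, 0.43 and 0.56 for LPS in WT, SCR and KD, and 0.42 for SCR and 0.42 for KD against WT without LPS.

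Of 14 genes often named as targets of AP-1 or EGR factors, 12 were tested, and 6, 4 and 5 were called with LPS in WT, SCR and KD. These were 50%, 33.3% and 41.7% of those tested, beside 14.3%, 17.2% and 11.5% of all genes. CD44, an adhesion receptor, rose by 2.04 (SE 0.114), 1.13 (SE 0.111) and 1.14 (SE 0.111), and CCND1, cyclin D1, by 1.67, 1.10 and 1.21. PLAUR, the urokinase receptor, rose by 0.97 in WT, and F3, tissue factor, by 1.28 in SCR and 1.50 in KD. SERPINB2, a plasminogen activator inhibitor, fell in WT by 1.92. CD44 and PLAUR were also higher without LPS in SCR than in WT, by 0.78 and 0.83, and in KD than in WT, by 0.72 and 0.69. With LPS PLAU, urokinase, and SERPINB2 were higher in KD than in WT, by 1.49 and 1.71. Each of these comparisons with WT called 16.7% of the targets tested, beside 3.23%, 11.7% and 10.8% of all genes. The median of the list for LPS was 0.56, 0.28 and 0.81 in WT, SCR and KD. Over the 5 lists, 0 of 70 genes tested were called in KD against SCR without LPS, 0 in KD against SCR with LPS and 0 in SCR against WT with LPS (edgeR), and 4, 7 and 22 had an unadjusted p under 0.05. Of all genes tested, 0.0660%, 0% and 0.114% were called. Without KD replicate 1, 30 of the genes in these 5 lists were called with LPS in KD in place of 20, all 20 among them, with the kinases and SRF partners going from 2 to 7 and the other immediate-early genes from 8 to 12. In KD against WT without LPS 14 were called with that library and 14 without it, 13 of them the same, and MAPK14 lost its call (adjusted p = 0.0754, edgeR). How many of all genes were called without that library is not given here. Whether the rise in calls was general or particular to these lists was therefore not compared here.

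The genes whose log2 CPM followed each member most closely were found among 16225 tested genes with a symbol, over 18 libraries that share the LPS contrast and the group differences, so that any gene with an LPS response can score highly. JUNB ran close to PDGFA (Pearson r = 0.98) and CCL3L1, JUN to BIRC3 (0.96), DUSP4 and SNHG17, and FOSL1 to CCND1 (0.95), TNFAIP3 and RASA4CP. FOSL2 ran closest to HLX (0.97), ATF4P3 and RNF13, all in the same sense. FOS ran closest to TRRAP (0.97), ARPC3P3 and SPG21, and EGR2 to CD83 (0.92), TIFAB and LTA. JUND ran closest to FKBP8 (0.92), PRKCSH and PRRC2A. The remaining members had lower likenesses, EGR1 with EEF1B2P3 (0.89), EEF1B2 and ODC1, FOSB with PYGB (0.79), RUSF1 and ELOF1, and EGR3 with BMS1P11 (0.79). Pseudogenes such as ARPC3P3, ATF4P3 and EEF1B2P3 share sequence with their parent genes, and their counts are uncertain.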

How the data were processed

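QuantSeq 3′ libraries of THP-1 cells were sequenced on a NextSeq500. Per the labels and methods, the authors aligned the reads with HISAT to GRCh37 and counted them with featureCounts on an Ensembl annotation reduced to one 500 base end per gene, and the deposited table holds raw counts, not normalized. All 18 columns were used. The strand setting of the counting is not given in the sources used here.

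Counts were filtered with filterByExpr by group, scaled by TMM and fitted with edgeR 4.0.16 (R 4.3.3) with 1 mean per group over all 18 libraries. The quasi-likelihood F test was two-sided, p-values were adjusted by Benjamini-Hochberg over 16678 genes, and an adjusted p under 0.05 was called. CPM are counts per 1000000, TMM-scaled, and a prior count of 2 was used for correlations. The 12 contrasts were 3 LPS responses, 6 pairs of conditions within a state and 3 interactions. An exact permutation test of 3 against 3 libraries cannot reach a p below 0.1. Alternatives were RLE scaling, no filter, DESeq2 1.42.0, fits of the compared groups alone, a replicate block and leaving out each library. By a chi-square between libraries of the same group, no library was a duplicate of another in its group. Pairs across groups were not compared in this way. The fits were tested on simulated data.

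The correlation of deviations of same-numbered libraries was above 0.1 for every pair in SCR against WT with LPS, between 0.163 and 0.261, and these were taken as paired from the data, since the labels name no shared batch. The members and gene lists were chosen with earlier results of these data known. The genes named were all 10 members, at most 3 per direction and list with the smallest adjusted p, the 3 genes most correlated with each member, TRAFD1 and 5 LPS-responsive genes. A few genes that this rule names are not reported here. Gene positions and overlaps came from GENCODE v44lift37. It is not the Ensembl annotation used for the counting, and gene ends may differ between the annotations. Promoters came from the RefSeq table on GRCh38.p14, in which FOSL1 and EGR3 had no entry.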

Additional observations from a re-analysis of the deposited data

Results flagged for a closer look

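The LPS response of 4 genes named here differed between conditions by an interaction term past an adjusted p of 0.05 (edgeR quasi-likelihood test, Benjamini-Hochberg). None of them was one of the 10 members. CD44 responded less in SCR than in WT, by -0.91 (SE 0.156, adjusted p = 0.0092, edgeR), and less in KD than in WT, by -0.90 (adjusted p = 0.0105, edgeR), or -0.73 (adjusted p = 0.0056, edgeR) without KD replicate 1. TNF differed by -1.42 in SCR and -1.76 in KD against WT, the latter -1.72 without KD replicate 1, CXCL10 by -2.07 in SCR against WT and NFKBIA by -0.63 in SCR against WT. CD44, TNF, CXCL10 and NFKBIA were higher in unstimulated SCR than in unstimulated WT, by 0.78, 1.46, 1.89 and 0.63. This difference is a term of the interaction and not a separate finding. With LPS none of the 4 was called between SCR and WT (edgeR). The comparisons share the WT libraries. Dixon's test was not applied to single values within a group, since each group held 3 libraries.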

How the results depend on the processing

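Of 120 fold changes of members, 26 were called, and none of these 26 changed sign under any of the 6 other fits or without any 1 library. Of the 26, 17 stayed called throughout, 6 lost the call in another fit and 8 without 1 library. Without LPS, the count of members called in KD against WT fell from 5 to 1 when only those groups were fitted and to 2 with DESeq2 on them without a filter. In SCR against WT with LPS it went from 0 to 2 without a filter and to 1 with DESeq2, over all libraries or these groups alone. In KD against SCR with LPS it went from 0 to 1 without a filter, with these groups alone and with DESeq2 on them. In KD against WT with LPS it went from 1 to 2 without a filter and with the replicate block (FOS and JUND), and to 3 with these groups alone by edgeR or DESeq2. For the interaction of KD and WT it went from 0 to 2 without a filter, to 3 (FOS, JUNB and EGR1) with the replicate block and to 1 with DESeq2 in each form. The share of all genes called in each of these fits is not given here. A shift of the members therefore cannot be told apart from a shift of the whole fit. The cause was not tested. Leaving out 1 library gave 2 to 4 members in SCR against WT and in KD against WT without LPS, 0 to 1 in KD against WT with LPS and 0 to 2 in the interaction of KD and WT. The block changed no other count of members, and outside SCR against WT with LPS the correlations of same-numbered libraries did not all pass 0.1, the lowest being -0.0875, so they share only a number there. No paired analysis was possible for the 3 LPS responses because their groups share no replicate number. Depth limits EGR3, FOSB and EGR2, with as few as 0, 8 and 4 counts in a library.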
